A study of Mus musculus with 24 samples.

Results

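Housing temperature was compared in the livers of control female mice: 3 housed at 22 °C against 4 housed at 30 °C, which are 7 of the 24 libraries of the study. They were chosen by their labels for sex, treatment and temperature, and by nothing measured in them. The study asked what removing a subtype of AgRP neurons of the arcuate nucleus does to mice at either temperature. Those neurons, which carry the angiotensin receptor AT1R, were killed with an injected virus encoding a Cre-activated caspase, and liver was frozen 2 weeks later. The mice described here served as its unablated females, 1 library of polyadenylated RNA per mouse.

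All 3 females at 22 °C were Ai39 x BAC-AT1A-Cre mice of genotype Cre- Halo+/-, which carry the Cre-dependent halorhodopsin allele without Cre. At 30 °C, females 1 and 2 had that same line and genotype, female 3 was a BAC-AT1A-Cre mouse labelled Cre- with no Halo allele named, and female 4 was Ai39 x BAC-AT1A-Cre labelled Cre+ Halo+/-. Line and Cre were therefore uniform among controls at 22 °C and mixed at 30 °C. The ablated females used for comparison, 3 at each temperature, all carried Cre: 5 were Ai39 x BAC-AT1A-Cre mice of genotype Cre+ Halo+/-, and 30 °C female 3 was an Ai9 x BAC-AT1A-Cre mouse of genotype Cre+ R+/-. The sources used here do not state what the controls were injected with, or their age. Food was free in all groups. The labels call these mice replicates, without saying whether they shared litters or cages.

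Mice kept at ordinary room temperature are below their thermoneutral zone and spend energy on heat, largely in brown fat, and eat more to do so. The liver feeds that demand: it oxidises fatty acids and makes ketone bodies under the nuclear receptor PPAR-alpha, makes fat and cholesterol under the SREBP factors, turns cholesterol into bile acids, and stores or releases glucose as glycogen. These tasks are divided along the lobule, with glutamine synthesis and much drug oxidation near the central vein under Wnt signals, and urea and glucose synthesis near the portal vein.

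The libraries held between 22999975 and 34851108 reads in genes. A pair stood apart from the other 5. The library of 22 °C female 3 took 37.3% of its reads from mitochondrial genes, against 11.97% to 22.1% in the other 6, and 1136 of the tested genes had no read in it. That of 30 °C female 1 had 22.1% mitochondrial reads and 1133 tested genes without a read, against 184 to 619 such genes in the other 5. Each was the extreme of one leading principal component, which held 31.0% and 24.7% of the variance. The shares of mitochondrial reads overlapped between the temperatures (22.99 ± 12.5% at 22 °C, n = 3, and 15.4 ± 4.61% at 30 °C, n = 4, mean ± SD, exact two-sided permutation p = 0.40). Many results that rest on these libraries, though not all, are also given without 1 or both of them. Hepatocyte markers led in every library, with albumin (Alb) at 47720 to 79645 CPM, that is reads scaled to a common library size, and the Y-linked gene Kdm5d had no read in any of the 7.

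**Figure D1:**
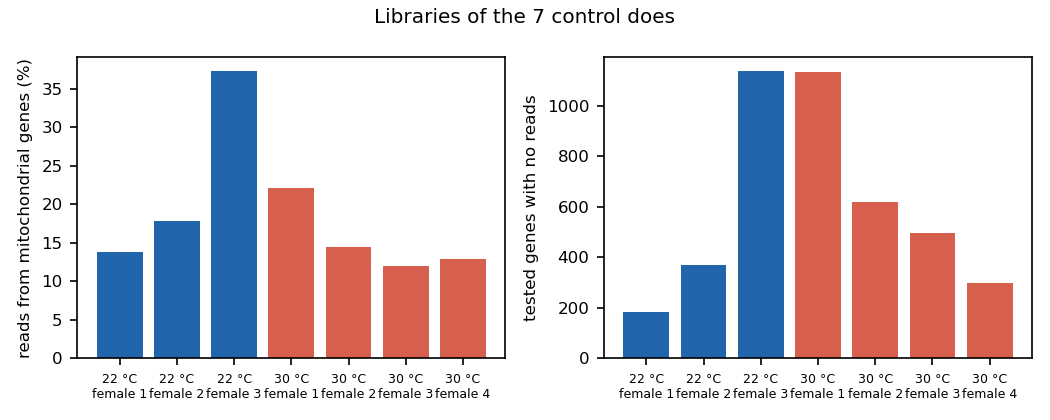
Share of reads from mitochondrial genes (left, %) and number of tested genes without a read (right) in each of the 7 control females, 22 °C in blue and 30 °C in red, 1 bar per mouse. The library of 22 °C female 3 is highest in mitochondrial share at 37.3%, and it and 30 °C female 1 have the most genes without a read, 1136 and 1133.

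No gene differed between the temperatures at the threshold used. Of 16413 genes tested with edgeR's quasi-likelihood test, 0 (0%) had a Benjamini-Hochberg adjusted p under 0.05, and the lowest adjusted p was 0.384, for the long non-coding RNA Meg3. At an unadjusted p under 0.05 there were 741 genes, of which 487 (2.97%) were higher and 254 (1.55%) lower at 22 °C. With limma voom 0 genes passed and 734 had an unadjusted p under 0.05. DESeq2, run without the low-count filter, called 6 genes, and edgeR without that filter called 5, as described below. The groups did not overlap, so that every mouse at one temperature exceeded every mouse at the other, for 514 genes (3.13%) higher at 22 °C and 468 (2.85%) lower. These 2 shares are the background against which any count of non-overlapping genes in a pathway is read.

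The absence of calls does not show that the livers were alike. The standard error of the log2 fold change had a median of 0.32 over all genes, and of 0.21 over the 3855 genes whose mean log2 CPM was 5 or more. The point estimate of 1424 genes (8.68%) was at least 1 in size on the log2 scale. Over all tested genes, the median log2 fold change (22 °C over 30 °C, used throughout) was -0.02, with 7877 positive and 8536 negative. Without the pair of libraries that stood apart 0 genes were called, 749 had an unadjusted p under 0.05, and the lowest adjusted p was 0.134.

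Although no gene passed, those of lowest p are described first, mouse by mouse. Their positions are those of the deposited tables, build GRCm39. Meg3, an imprinted long non-coding RNA (chr12:109506879-109538165), stood at 7.18, 10.6 and 10.1 CPM in 22 °C females 1 to 3, and at 1.89, 2.43, 2.798 and 2.33 CPM in 30 °C females 1 to 4. All mice at 22 °C were above all at 30 °C, with a log2 fold change of 1.98 ± 0.31 (SE) and a 95% interval of 1.32 to 2.64. Its adjusted p was 0.384 in edgeR, 0.00875 in edgeR without the low-count filter and 4.49e-04 in DESeq2. Over 21 settings in all, some of them identical fits, it ran from 4.49e-04 to 1.00. The estimate itself stayed between 1.83 and 2.13 in those settings. Sned1 (chr1:93163563-93228787), which encodes an extracellular matrix glycoprotein, was at 50.6, 60.5 and 55.8 CPM at 22 °C and at 19.1, 30.4, 22.7 and 33.4 CPM at 30 °C. The log2 fold change was 1.08 ± 0.21, and its edgeR adjusted p of 0.979 ranged from 0.0288 to 1.00 over the settings. Sned1 overlaps Mterf4 on the other strand, and the sources used here do not state whether reads were counted by strand.

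Ppp1r3b (chr8:35842893-35855293), the subunit that brings protein phosphatase 1 to liver glycogen and so favours glycogen synthesis, was 1 of the 5 protein-coding genes of lowest p among those higher at 22 °C. It was at 112, 188 and 164 CPM at 22 °C and at 91.0, 96.3, 67.1 and 65.8 CPM at 30 °C, again without overlap. The log2 fold change was 0.95 ± 0.23, and 0.98 without the pair of libraries that stood apart. The remaining 3 were low or moderate in level. Speg, a muscle-type kinase gene, was at 5.90, 5.79 and 12.8 CPM against 3.17, 2.87, 1.94 and 2.33 CPM, with 22 °C female 3 far above the others. Its log2 fold change was 1.66 ± 0.37, and 1.30 without the pair that stood apart. Parp3, a DNA-repair ADP-ribosyltransferase, was at 59.5, 62.2 and 97.8 CPM against 44.0, 41.8, 30.9 and 32.9 CPM, with the same female highest. The log2 fold change of Parp3 was 0.97 ± 0.22, and 0.79 without the pair. Recql4, a DNA helicase, was at 7.21, 7.95 and 10.7 CPM against 3.56, 2.87, 2.63 and 4.60 CPM. Each of these 3, like Ppp1r3b, overlaps an annotated gene on the other strand, and none of their groups overlapped.

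Cyp4a14 (chr4:115343397-115353339), a cytochrome P450 that hydroxylates fatty acids and is among the most PPAR-alpha-responsive genes of mouse liver, had the lowest p of the protein-coding genes. It was at 136, 60.7 and 95.6 CPM at 22 °C and at 232, 318, 358 and 221 CPM at 30 °C, so the highest mouse at 22 °C lay well under the lowest at 30 °C. The log2 fold change was -1.53 ± 0.29 with a 95% interval of -2.16 to -0.91, and -1.60 without the pair that stood apart. Its adjusted p was 0.979 in edgeR, 8.58e-04 without the low-count filter and 4.49e-04 in DESeq2, and reached 1.00 in other settings. Rpl30, a ribosomal protein gene, was at 49.2, 29.4 and 18.1 CPM against 67.8, 86.4, 121 and 82.5 CPM, a log2 fold change of -1.47 ± 0.31. It has an annotated antisense neighbour, and ribosomal protein genes have near-identical copies elsewhere in the genome, so its count is uncertain. The adjusted p of Rpl30 was 0.979 in edgeR, 0.0353 without the filter and 0.0168 in DESeq2.

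The other 3 protein-coding genes of lowest p among those lower at 22 °C were Rnf152, Lcorl and Aldh1b1. Rnf152, a ubiquitin ligase of the lysosome, was at 29.1, 28.7 and 30.0 CPM against 48.1, 42.4, 57.9 and 62.2 CPM. Lcorl, a transcriptional regulator linked to body size in several mammals, was at 5.15, 4.82 and 3.57 CPM against 8.30, 10.8, 10.7 and 10.7 CPM. Aldh1b1, a mitochondrial aldehyde dehydrogenase, was at 18.8, 20.8 and 31.9 CPM against 43.5, 54.6, 40.3 and 43.0 CPM. Their log2 fold changes were -0.85 ± 0.19, -1.16 ± 0.27 and -0.93 ± 0.22, and no groups overlapped. Lcorl overlaps 5 annotated genes, among them Ncapg, and Rnf152 overlaps Gm17634 on the other strand. The pseudogene Gm28661, which DESeq2 and the unfiltered edgeR fit also called, was highest in the library of highest mitochondrial share, with 1634 CPM in 22 °C female 3, 700 and 811 CPM in females 1 and 2 and 385 to 531 CPM at 30 °C. The sixth gene called by DESeq2, the long non-coding RNA Gm13470, rested on 3, 41 and 56 reads at 22 °C and on 0 reads in each of the 4 libraries at 30 °C.

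**Figure D2:**
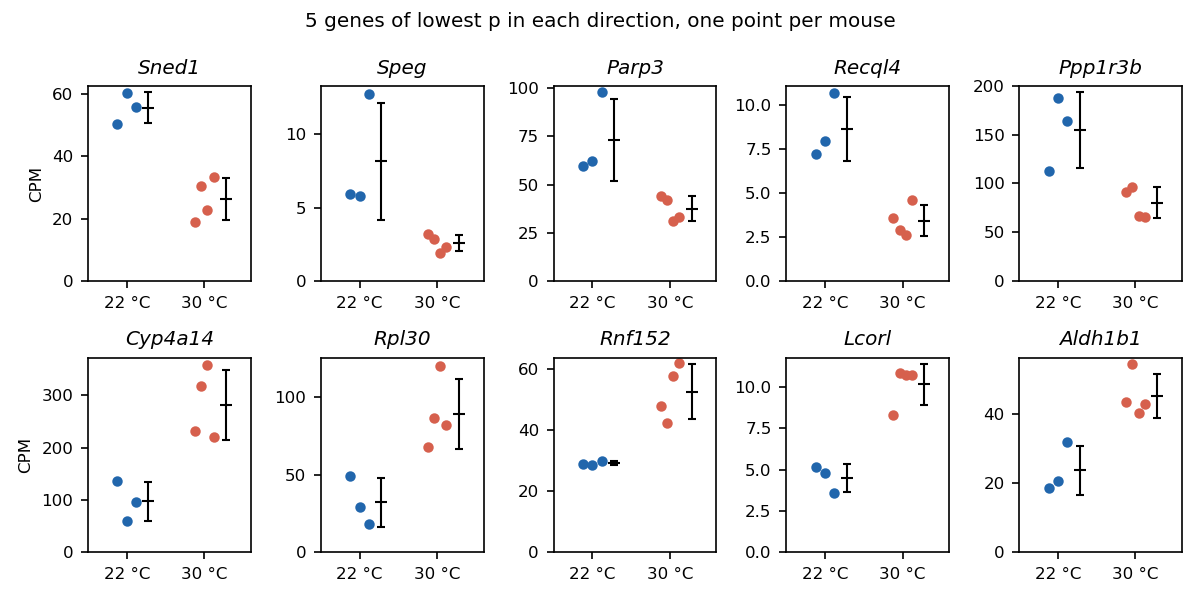
CPM in each mouse for the 5 protein-coding genes of lowest p that were higher at 22 °C (top) and the 5 that were lower (bottom). Blue points are the 3 females at 22 °C, red points the 4 at 30 °C, each in order of replicate number, and bars are the mean ± SD. In no panel do the groups overlap, yet all 10 genes had an edgeR adjusted p of 0.979.

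Genes of fatty acid oxidation and other PPAR-alpha targets lay mostly on the negative side. Of 25 such genes 6 were positive and 19 negative, with a median log2 fold change of -0.21, against -0.02 over all genes, and -0.18 without the pair of libraries that stood apart. None was called. Only Cyp4a14 and Acot1 had groups without overlap, both lower at 22 °C, which is 2 of 25 beside 2.85% of all genes. Acot1, a cytosolic acyl-CoA thioesterase that frees fatty acids from coenzyme A, was at 12.99, 8.68 and 6.45 CPM against 19.3, 15.4, 25.6 and 16.4 CPM. Its log2 fold change was -1.03 ± 0.28, with a 95% interval of -1.64 to -0.42.

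Acot1 lies in a cluster of thioesterase genes on chromosome 12. Peroxisomal Acot4 was at 166, 134 and 154 CPM against 219, 264, 203 and 195 CPM, without overlap, and its log2 fold change was -0.54 ± 0.19. Acot3, also peroxisomal, was at 114, 90.4 and 174 CPM against 144, 220, 164 and 174 CPM, with 22 °C female 3 inside the 30 °C range and a log2 fold change of -0.48 ± 0.25. Without the pair of libraries that stood apart Acot1 and Acot3 were at -0.82 and -0.86. Mitochondrial Acot2 was at 9.71, 5.42 and 13.9 CPM against 12.8, 10.7, 3.83 and 8.36 CPM, fully overlapping, at 0.11 ± 0.40. No test of a difference between members was made. Acot3 and Acot4 overlap the annotated gene 4732463B04Rik on the other strand. They are close in sequence, and the sources used here do not state how reads shared between them were assigned. The windows from 250 bases before to 50 bases after the start of Acot1 (chr12:84009252-84009551, plus strand) and of Acot3 (chr12:84051894-84052193, plus strand) are shown because both genes are PPAR-alpha targets of the cluster with negative log2 fold changes, and PPAR-alpha binds paired copies of AGGTCA. They are RefSeq sequences of build GRCm38.p6, with AGGTCA, or its reverse complement, in capitals.
Acot1: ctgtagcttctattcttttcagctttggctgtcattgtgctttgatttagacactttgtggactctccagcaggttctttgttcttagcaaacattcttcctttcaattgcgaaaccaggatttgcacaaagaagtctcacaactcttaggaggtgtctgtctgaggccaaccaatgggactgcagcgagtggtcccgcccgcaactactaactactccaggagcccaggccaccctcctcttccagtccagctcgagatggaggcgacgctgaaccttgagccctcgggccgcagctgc
Acot3: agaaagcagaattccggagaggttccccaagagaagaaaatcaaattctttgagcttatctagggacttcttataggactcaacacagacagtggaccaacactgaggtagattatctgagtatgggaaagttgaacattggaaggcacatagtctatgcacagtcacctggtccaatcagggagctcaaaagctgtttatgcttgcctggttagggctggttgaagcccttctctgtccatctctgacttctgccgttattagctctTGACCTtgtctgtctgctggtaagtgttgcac
The motif of 6 bases was found once in the Acot3 window, from base 19 after the start, and not in that of Acot1. It occurs on either strand in 16.3% of all 32851 windows of the table.

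The other oxidation genes had small or scattered differences. Cpt1a, which admits long-chain fatty acids to mitochondria, was at 324, 348 and 328 CPM against 347, 326, 310 and 287 CPM, and its log2 fold change of 0.07 had a 95% interval of -0.32 to 0.46. The interval excludes a log2 difference of 1 in either direction. Cyp4a10, the paralogue of Cyp4a14, was at 335, 502 and 655 CPM against 586, 821, 626 and 422 CPM, overlapping, at -0.30 ± 0.28. Plin2, a lipid droplet coat protein, was at 235, 131 and 91.6 CPM against 214, 166, 304 and 227 CPM, at -0.58 ± 0.31, with 22 °C female 3 lowest. Without the pair that stood apart Plin2 was at -0.34. Of the 5 ketone body genes 1 was positive, with a median of -0.06.

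Fgf21, a hormone that the liver releases under PPAR-alpha in fasting and that acts on brown fat, varied too much to place. It was at 3.97, 2.26 and 5.26 CPM at 22 °C and at 12.4, 6.35, 2.02 and 0.688 CPM at 30 °C, so the 4 mice at 30 °C enclosed all 3 at 22 °C. Its log2 fold change of -0.49 ± 0.74 had an interval of -2.11 to 1.13, and was 0.06 without the pair that stood apart. Of 23 secreted hepatokine genes 10 were positive, with a median of -0.19 that came to -0.01 without that pair.

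Among genes of fat synthesis, Fasn, the fatty acid synthase, was higher in every mouse at 22 °C. It was at 978, 983 and 811 CPM against 766, 560, 687 and 625 CPM, a log2 fold change of 0.49 ± 0.20 with an interval of 0.05 to 0.93 and an edgeR adjusted p of 0.979. It was 1 of 18 genes of the list without overlap, beside 3.13% of all genes. Acly, which makes the acetyl-CoA that Fasn uses, was at 165, 169 and 158 CPM against 168, 90.9, 128 and 104 CPM, with 30 °C female 1 as high as the mice at 22 °C. Scd1, the desaturase that makes oleate, was at 2872, 2058 and 1598 CPM against 2935, 1296, 3583 and 1805 CPM, fully overlapping. Me1, which supplies NADPH for the pathway, was at 139, 80.1 and 39.7 CPM against 90.02, 84.2, 235 and 152 CPM, at -0.70 ± 0.43. The list had 7 of 18 genes positive and a median of -0.15, but 12 positive and a median of 0.09 without the pair that stood apart, so it had no stable direction. Of 22 genes of a separate list, of lipoprotein handling, Lpl was 1 lower without overlap and Plin4 was 1 higher. Of all genes, 2.85% were lower and 3.13% higher without overlap. Lpl, the lipoprotein lipase, was at 11.6, 8.85 and 10.5 CPM against 65.3, 16.4, 11.96 and 12.2 CPM, with most of the distance in 30 °C female 1.

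Cholesterol and bile acid genes showed no stable direction. Of 24 cholesterol synthesis and uptake genes 14 were positive, with a median of 0.06, and none had groups without overlap. That median was -0.34 without 22 °C female 2 and 0.25 without 22 °C female 3. Sqle, the squalene epoxidase of cholesterol synthesis, was at 25.8, 62.8 and 29.7 CPM against 30.7, 57.6, 52.3 and 37.3 CPM, overlapping, at -0.17 ± 0.31. Of 19 bile acid genes 11 were positive, with a median of 0.05. Hsd3b7, higher at 22 °C, was 1 of 19 without overlap, beside 3.13% of all genes. Cyp7a1, the rate-limiting enzyme of the classical route, was at 180, 207 and 154 CPM against 81.2, 192, 183 and 125 CPM, at 0.31 with an interval of -0.28 to 0.90. Cyp7b1, of the alternative route, was at 16.5, 19.96 and 3.93 CPM against 6.79, 13.2, 22.9 and 10.2 CPM, at 0.03 with an interval of -1.06 to 1.12. In both genes the mice of one temperature lay among those of the other.

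Genes of glucose handling other than Ppp1r3b overlapped. Pck1, the gatekeeper of gluconeogenesis, was at 2063, 2495 and 2248 CPM against 2237, 2914, 3245 and 1755 CPM, at -0.16 with an interval of -0.71 to 0.38. G6pc, the phosphatase that releases glucose, was at 404, 188 and 757 CPM against 178, 158, 436 and 113 CPM, at 1.02 ± 0.51, and 0.33 without the pair that stood apart. The 17 gluconeogenic and fasting genes had a median of 0.03 with 10 positive. The 18 of glycolysis, fructose and glycogen had a median of -0.16 with 3 positive, which was -0.02 with 8 positive without 22 °C female 3. Without the pair that stood apart the latter was -0.09 with 5 positive. Ppp1r3b was the single gene of both lists without overlap, beside 3.13% of all genes higher without overlap. The glycogen synthase gene Gys2 was at 372, 269 and 421 CPM against 589, 288, 495 and 485 CPM, at -0.39 ± 0.26, and the glycogen phosphorylase gene Pygl at -0.20 ± 0.30.

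**Figure D3:**
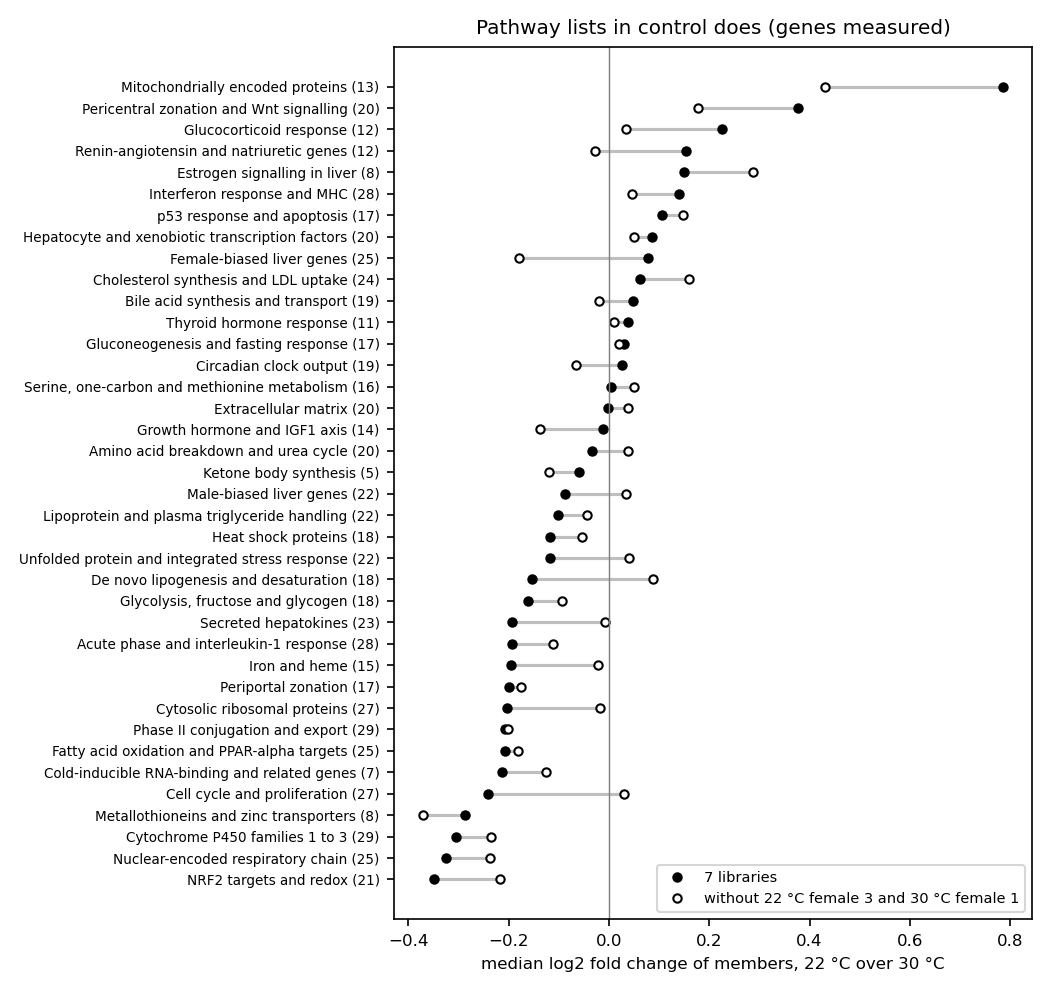
Median log2 fold change (22 °C over 30 °C) of each of 38 pathway lists, with the number of measured genes in brackets. Filled circles use all 7 libraries and open circles leave out 22 °C female 3 and 30 °C female 1. The mitochondrially encoded genes are highest at 0.79 and come to 0.43 without those libraries, and several lists cross 0.

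Genes of the central and portal ends of the lobule differed in side. Of 20 pericentral and Wnt-related genes 14 were positive, with a median of 0.38, and of 17 periportal genes 4 were positive, with a median of -0.20. Without the pair of libraries that stood apart both medians kept their sign, at 0.18 and -0.18. The counts were then 12 of 20 and 7 of 17 positive, so the sides were less uneven. Axin2, a direct Wnt target and feedback inhibitor, was at 23.1, 20.7 and 30.5 CPM against 16.8, 17.5, 18.03 and 19.5 CPM. Tbx3, a Wnt-regulated transcription factor, was at 48.7, 54.5 and 69.5 CPM against 34.4, 48.1, 36.3 and 43.9 CPM. Ahr, the aryl hydrocarbon receptor, was at 47.2, 53.9 and 64.1 CPM against 29.2, 44.0, 42.3 and 36.4 CPM. These were the 3 of 20 without overlap, beside 3.13% of all genes, and in each 22 °C female 3, the library of high mitochondrial share, was highest. Without the pair that stood apart, Axin2 went from 0.46 ± 0.20 to 0.26 and Tbx3 from 0.50 ± 0.20 to 0.27. The part that the mitochondrial share plays in these values was not tested.

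Enzymes of the central vein lay on both sides of 0. Glul, the glutamine synthetase of the last cell layer, was at 993, 843 and 487 CPM against 404, 784, 1016 and 612 CPM. Cyp2e1, an ethanol-oxidising P450, was at 4741, 3497 and 1557 CPM against 1742, 4223, 5584 and 4493 CPM, and Cyp1a2 was at 582, 626 and 406 CPM against 306, 602, 782 and 750 CPM. In all 3 the lowest mouse of each temperature was the library that stood apart, and the log2 fold changes had intervals that included 0, from -0.55 to 0.83 for Glul. Oat, which works beside Glul, was at 621, 909 and 360 CPM against 222, 423, 546 and 477 CPM, at 0.59 ± 0.33.

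On the portal side, Cdh1, the E-cadherin of periportal hepatocytes and bile duct cells, was at 15.4, 15.8 and 16.1 CPM against 27.1, 29.2, 30.0 and 20.97 CPM. The 3 mice at 22 °C were almost equal and all lower, at -0.77 ± 0.20, with the same value, -0.77, without the pair that stood apart. Hsd17b13, a lipid droplet dehydrogenase, was at 181, 159 and 183 CPM against 360, 215, 240 and 270 CPM, at -0.64 ± 0.22. With Aldh1b1 these were the 3 of 17 without overlap, beside 2.85% of all genes. Cyp2f2, a portal P450, was at 252, 258 and 235 CPM against 247, 312, 419 and 351 CPM, at -0.42 ± 0.21. The urea cycle gene Arg1 and the immunoglobulin receptor gene Pigr lay at -0.04 and -0.03. In whole liver, fewer cells of a kind and less RNA per cell cannot be told apart.

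**Figure D4:**
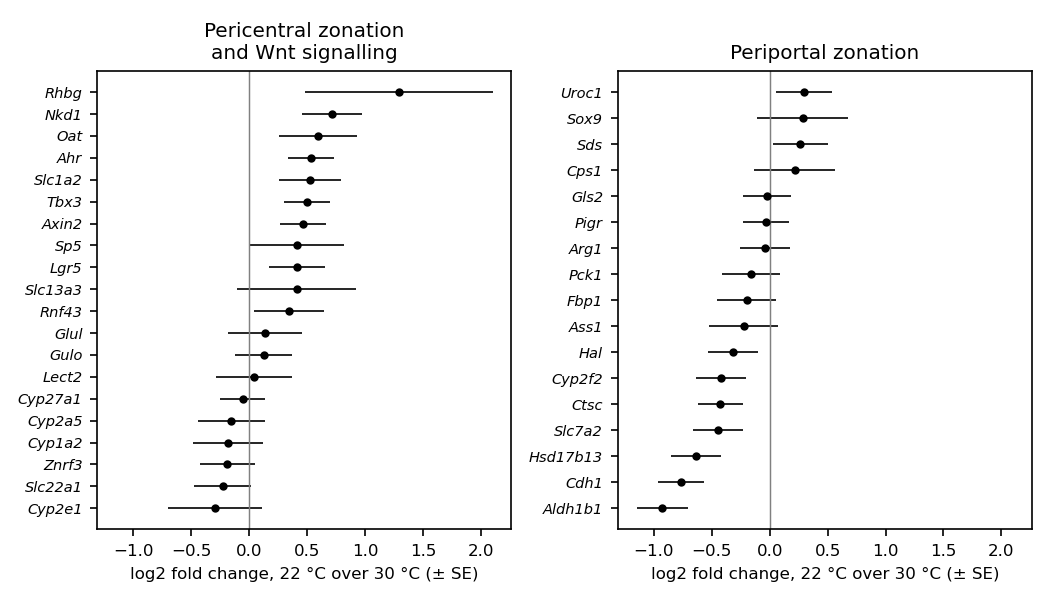
Log2 fold change (22 °C over 30 °C) ± SE of each measured gene of the pericentral and Wnt list (left, 20 genes) and the periportal list (right, 17 genes), over 3 and 4 females. Most pericentral genes lie right of 0 except drug-metabolising enzymes such as Cyp2e1, and Aldh1b1, Cdh1 and Hsd17b13 lie farthest left among periportal genes.

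Drug-metabolising and redox genes lay mostly on the negative side. Of 29 P450 genes of families 1 to 3, 6 were positive with a median of -0.31, of 29 conjugation and export genes 7 with a median of -0.21, and of 21 NRF2 targets 5 with a median of -0.35. Without the pair that stood apart the medians were -0.23, -0.20 and -0.22. Without 22 °C female 3 alone they were -0.12, -0.08 and -0.14. Cyp2a4, a steroid hydroxylase more abundant in females, was at 1281, 1068 and 836 CPM against 2455, 1350, 2188 and 1797 CPM, without overlap, at -0.88 ± 0.26. It is nearly identical to Cyp2a5, which was at 857, 1166 and 1208 CPM against 694, 1156, 1200 and 1747 CPM, so the split of reads between them is uncertain. Cyp3a11, the main target of the pregnane X receptor, was at 665, 336 and 206 CPM against 374, 541, 752 and 653 CPM, overlapping, at -0.53 ± 0.36. Hsd17b6, which oxidises androgen metabolites, was at 281, 238 and 253 CPM against 476, 565, 415 and 364 CPM, without overlap, at -0.82 ± 0.21.

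Of the NRF2 targets, Gclc, the catalytic subunit of glutathione synthesis, was at 136, 139 and 138 CPM against 284, 160, 166 and 154 CPM, with 30 °C female 1 far above. Abcc4, an efflux pump, was at 1.87, 2.30 and 0.594 CPM against 7.30, 3.88, 2.45 and 3.89 CPM, and Sod2, the mitochondrial superoxide dismutase, at 141, 137 and 88.4 CPM against 146, 177, 167 and 172 CPM. These 3 of 21 were lower at 22 °C without overlap, beside 2.85% of all genes. Srxn1 and Aox1 were higher without overlap, beside 3.13% of all genes. Mt1, a metallothionein that binds zinc and answers to stress hormones, was at 467, 1124 and 1796 CPM against 1048, 1726, 1272 and 2118 CPM, at -0.45 ± 0.39, and -1.10 without the pair.

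Genes that respond to temperature itself showed no call. Cirbp, an RNA-binding protein induced by mild cooling of cells, was at 26.9, 22.2 and 17.1 CPM against 21.5, 22.9, 31.5 and 26.5 CPM, at -0.21 with an interval of -0.68 to 0.25. Rbm3, its cold-induced relative, was at 29.0, 23.4 and 16.3 CPM against 18.9, 16.3, 29.5 and 22.0 CPM, at 0.08 with an interval of -0.47 to 0.63. For both, the mice of one temperature lay among those of the other, and both upper bounds are under 1 on the log2 scale. Of the 7 cold-inducible genes 1 was positive, with a median of -0.21 that was -0.06 without 22 °C female 3. Of 18 heat shock genes 5 were positive, with a median of -0.12 that was 0.04 without 22 °C female 3. Of 22 genes of the unfolded protein response 7 were positive, with a median of -0.12 that was likewise 0.01. Without the pair that stood apart the medians of these lists were, in the same order, -0.13, -0.05 and 0.04. Only Dnajb9, a chaperone of the endoplasmic reticulum, had groups without overlap, at -0.71 ± 0.25, beside 2.85% of all genes.

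No gene of the hormone axes was called. Dio1, the liver deiodinase and a target of thyroid hormone, was at 138, 204 and 83.4 CPM against 96.5, 189, 181 and 162 CPM, at -0.15 with an interval of -0.80 to 0.51, and of 11 thyroid hormone response genes 6 were positive. Igf1, the liver's growth factor under growth hormone, was at 1028, 1196 and 985 CPM against 1013, 1188, 989 and 852 CPM, at 0.08 with an interval of -0.37 to 0.53. Agtr1a, the receptor gene whose regulatory sequence drives Cre in these lines, was at 64.4, 77.0 and 75.8 CPM against 54.6, 67.9, 59.9 and 58.8 CPM, at 0.26 ± 0.17. Agt, which encodes angiotensinogen, was at 759, 813 and 595 CPM against 586, 841, 677 and 745 CPM, at 0.02 with an interval of -0.44 to 0.48. In each of these 4 genes the groups overlapped. Npr2, a natriuretic peptide receptor gene, was without overlap at 203, 196 and 256 CPM against 118, 168, 144 and 110 CPM, at 0.69 ± 0.21. It was 1 of 3 of the 12 renin-angiotensin and natriuretic genes without overlap. The angiotensin-cleaving peptidase gene Enpep was also higher (0.51 ± 0.19) and the peptidase gene Lnpep lower at 22 °C (-0.74 ± 0.31). Of all genes, 3.13% were higher and 2.85% lower without overlap.

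Clock genes gave no shift of one kind. Per2, a repressor of the clock, was at 98.3, 160 and 216 CPM against 107, 131, 79.3 and 98.6 CPM, overlapping through 22 °C female 1, at 0.60 ± 0.26 and 0.33 without the pair that stood apart. Rora, an activator, was at 24.5, 24.4 and 24.8 CPM against 36.8, 28.8, 35.9 and 38.6 CPM, at -0.51 ± 0.18. Cry2, a repressor, was at 39.7, 42.9 and 49.4 CPM against 51.3, 58.0, 55.4 and 57.9 CPM, at -0.34 ± 0.17. The latter were 2 of 19 lower without overlap, beside 2.85% of all genes, and Dbp and Nr1d1, the strongest outputs of the clock, lay at 0.01 and 0.18. The sources used here do not state the hour at which each liver was taken.

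Mitochondrial transcripts were split by genome. All 13 mitochondrially encoded protein genes were positive, with a median of 0.79, and 24 of 25 nuclear genes of the respiratory chain were negative, with a median of -0.32. The 13 transcripts come from 1 polycistronic unit per strand, and none had groups without overlap. mt-Co2, a subunit of cytochrome c oxidase, was at 2845, 3160 and 12116 CPM against 3905, 1452, 1169 and 1939 CPM, so that 22 °C female 3 stood several times above every other mouse. mt-Nd1, of complex I, was at 13594, 16076 and 35253 CPM against 21036, 14032, 13163 and 11582 CPM. Without 22 °C female 3 the mitochondrial median was 0.12 with 9 of 13 positive, and the nuclear median was -0.11 with 2 of 25 positive. Without the pair that stood apart they were 0.43 with 13 of 13 positive and -0.24 with 1 of 25 positive. A fit without the mitochondrial genes also called 0 genes. Of 27 cytosolic ribosomal protein genes 2 were positive, with a median of -0.20, against 22 positive and 0.05 without 22 °C female 3. Without the pair that stood apart, 9 were positive, with a median of -0.02.

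Inflammation and growth genes gave no call either. Of 28 acute phase genes 8 were positive, with a median of -0.19 that was 0.01 without 22 °C female 3. Without the pair that stood apart it was -0.11 with 7 positive. Saa1, a serum amyloid gene, was at 7.87, 18.7 and 5.76 CPM against 4.29, 9.91, 8.69 and 14.9 CPM. Its interval, -0.76 to 1.14, left both directions possible. Of 28 interferon and MHC genes 16 were positive, with a median of 0.14, and 0.05 without the pair that stood apart. Of 27 cell cycle genes 7 were positive, with a median of -0.24, which was 0.02 without 30 °C female 1. Mki67, a marker of dividing cells, was at 9.80 CPM in 30 °C female 1 and at 1.56 to 5.17 CPM in the other 6. Ccne1, Cdt1 and Tpx2, which act in S phase and on the spindle, were 3 of 27 lower without overlap, beside 2.85% of all genes. Their levels ran from 0.0937 to 6.41 CPM.

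The remaining lists are given by their medians. In all 7 libraries, the medians were 0.23 for 12 glucocorticoid response genes, 0.15 for 8 estrogen-related genes and 0.15 for 12 renin-angiotensin and natriuretic genes. They were 0.11 for 17 p53 genes and 0.09 for 20 hepatocyte transcription factors. Without the pair that stood apart these medians were, in the same order, 0.03, 0.29, -0.03, 0.15 and 0.05. The 25 female-biased genes had a median of 0.08 and the 22 male-biased genes one of -0.09, and without the pair that stood apart these were -0.18 and 0.03. Medians of 0.00 for one-carbon metabolism, 0.00 for extracellular matrix, -0.01 for the growth hormone axis and -0.03 for amino acid breakdown lay near that of all genes. Lipoprotein handling was at -0.10, iron and heme at -0.20 and metallothioneins and zinc transporters at -0.29. Without 22 °C female 3 the lipoprotein list was at 0.02 and the iron list at -0.01. Without the pair that stood apart they were at -0.04 and -0.02. The metallothionein list stayed between -0.41 and -0.22 when any 1 mouse was left out. Sgk1, a kinase gene induced by glucocorticoids, was the single gene of its list without overlap, beside 3.13% of all genes. It was at 17.96 to 23.3 CPM against 9.79 to 15.8 CPM.

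Summed markers of other cell types overlapped between the groups. The summed level of 14 Kupffer cell and macrophage genes was 233 to 267 CPM at 22 °C and 200.2 to 329 CPM at 30 °C, and that of 14 endothelial genes 346 to 387 and 283 to 374 CPM. Stellate cell and fibroblast genes summed to 246 to 399 and 288 to 389 CPM, cholangiocyte genes to 115 to 168 and 117 to 199 CPM, and lymphocyte genes to 24.6 to 27.3 and 19.5 to 36.4 CPM. Erythroid genes summed to 302 to 442 CPM at 22 °C and 154 to 351 CPM at 30 °C. All 6 tested erythroid genes were positive, with a median of 0.43 and 0.10 without the pair that stood apart, and Klf1, the erythroid transcription factor, was at 8.99, 16.7 and 21.6 CPM against 7.98, 5.86, 8.39 and 8.09 CPM. Neutrophil and platelet genes summed to 20.5 to 30.0 and 16.5 to 25.1 CPM, with Mpo, Elane, Ly6g and Ngp at 0 in all 7. Skeletal muscle genes summed to at most 2.73 CPM, exocrine pancreas genes to at most 15.4 CPM and adipocyte genes to at most 45.7 CPM, with Ckm, Acta1, Cpa1, Prss2, Lep and Retn at 0 throughout. Gallbladder and gut epithelial genes summed to 434 CPM in 22 °C female 3 and to 169 to 309 CPM in the other 6, and mesothelial and capsule genes to 287 to 325 and 306 to 359 CPM. The 9 hepatocyte genes with a row summed lowest in 22 °C female 3, at 69656 CPM, against 83979 to 118900 CPM in the rest.

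The same temperature contrast was available in ablated females, 3 at each temperature, which share no library with the controls. In a fit of all 13 female libraries, 0 of 17709 genes (0%) were called by edgeR in ablated females, and 2024 (11.4%) had an unadjusted p under 0.05. The Ai9 mouse, 30 °C ablated female 3, had 7.53% mitochondrial reads. Without it, 818 of 18589 genes had an unadjusted p under 0.05 and 1 was called. The difference of the temperature effect, control minus ablated, was tested itself: 0 genes (0%) were called, 819 (4.62%) had an unadjusted p under 0.05, and the lowest adjusted p was 1.00. For that difference, DESeq2 called 6 genes and edgeR without the low-count filter called 128. By the main test, no gene's temperature effect was shown to belong to control females alone.

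Among protein-coding genes with a mean log2 CPM of at least 0, Acacb, Lrg1 and Gsta2 had the lowest p for the difference. Their groups overlapped in controls. Acacb, the acetyl-CoA carboxylase at the mitochondrial membrane, was at 117, 112 and 119 CPM at 22 °C and 189, 128, 123 and 106 CPM at 30 °C in controls, a log2 fold change of -0.23 ± 0.22. In ablated females it was 1.23 ± 0.23, and the difference was -1.46 ± 0.32. Lrg1, a secreted acute phase glycoprotein, was at 193, 199.98 and 135 CPM against 115, 198, 135 and 122 CPM in controls, at 0.31 ± 0.23, with -2.26 ± 0.40 in ablated females. The ablated females were at 106, 73.3 and 62.7 CPM at 22 °C and 264, 192 and 701 CPM at 30 °C, with 30 °C female 3 far above. Gsta2, an alpha-class glutathione transferase, was at 7.81, 4.72 and 7.04 CPM against 11.1, 6.02, 12.7 and 14.02 CPM in controls, at -0.75 ± 0.32, with 1.90 ± 0.41 in ablated females. Its relative Gsta1 was too low to test in controls, and reads shared between these paralogues make both uncertain.

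Gba2 and Cenpa complete the 5 such protein-coding genes of lowest p for the difference. Gba2, a non-lysosomal glucosylceramidase that also acts on bile acid glucosides, was at 36.8, 42.7 and 49.98 CPM against 25.2, 29.1, 26.6 and 28.6 CPM in controls. Those groups did not overlap, at 0.65 ± 0.18, and the value in ablated females was -0.35 ± 0.17. Gba2 overlaps Creb3 and Rgp1 on the other strand, and Acacb and Lrg1 each overlap 1 annotated gene there. Cenpa, a histone of the centromere, was at 12.02, 11.3 and 11.1 CPM against 19.7, 12.7, 15.02 and 15.999 CPM in controls, at -0.47 ± 0.22, with 0.76 ± 0.22 in ablated females. All 5 differences had an edgeR adjusted p of 1.00.

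The genes that led in controls were chosen for their extreme values there, so estimates nearer 0 in other mice follow from the choice and are given as values only. Cyp4a14 was at 0.12 ± 0.45 in ablated females, and the difference was -1.65 ± 0.63 (edgeR adjusted p = 1.00). Ppp1r3b was at -0.01 ± 0.23 with a difference of 0.98 ± 0.32, and Meg3 at -0.04 ± 0.63 with a difference of 2.02 ± 0.87. Rpl30, Hsd17b6 and Cdh1 were on the same side in both, at -1.92 ± 0.37, -1.27 ± 0.21 and -1.55 ± 0.39 in ablated females. The rest of the protein-coding genes of lowest p in controls also kept their side. Sned1, Speg, Parp3 and Recql4 were at 0.36 ± 0.25, 1.11 ± 0.54, 0.51 ± 0.22 and 0.73 ± 0.38 in ablated females. In each of them 30 °C ablated female 3 was the lowest mouse, as in Speg with 0.458 CPM against 4.08 and 4.05 CPM in 30 °C ablated females 1 and 2. Rnf152, Lcorl and Aldh1b1 were at -0.31 ± 0.20, -0.28 ± 0.27 and -0.64 ± 0.34. Fasn was also on the same side, at 0.78 ± 0.27. Pck1 and Dio1, near 0 in controls, were at -1.53 ± 0.35 and -1.18 ± 0.29 in ablated females, with differences of 1.38 ± 0.46 and 1.03 ± 0.39. In ablated females Pck1 was at 585, 601 and 664 CPM at 22 °C and 961, 1239 and 3139 CPM at 30 °C. Dio1 was at 58.9, 77.7 and 56.1 CPM against 134, 121 and 181 CPM. In both genes 30 °C ablated female 3 was highest, and its part in these estimates was not tested.

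**Figure D5:**
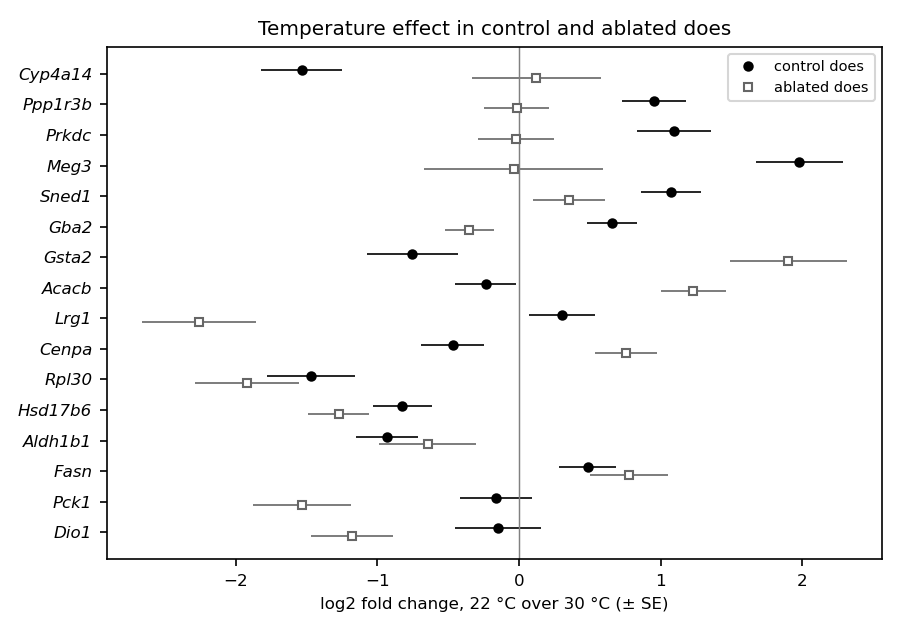
Log2 fold change (22 °C over 30 °C) ± SE of 16 genes, all but Prkdc described in the text. Filled circles are control females (3 against 4) and open squares ablated females (3 against 3). Cyp4a14, Ppp1r3b and Meg3 lie away from 0 in controls and near 0 in ablated females, Acacb, Lrg1 and Gsta2 the reverse or opposite, and no difference was called.

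The list medians are given side by side. Fatty acid oxidation genes were at -0.21 in controls and 0.10 in ablated females, fat synthesis genes at -0.15 and 0.66, acute phase genes at -0.19 and -1.19, and pericentral genes at 0.38 and -0.25. Periportal genes were at -0.20 and -0.44, heat shock genes at -0.12 and -0.50 and mitochondrially encoded genes at 0.79 and 1.22. These medians describe the members and carry no test. Marker lists moved beside them in ablated females, where the medians were -0.84 for hepatocytes, 0.71 for stellate cells, 0.87 for endothelium and 0.37 for Kupffer cells, against -0.16, -0.02, 0.02 and -0.33 in controls. Their part in the list medians was not tested.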

How the data were processed

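RNA of 24 mouse livers was sequenced after poly-A selection, and 13 female libraries were used here. Per the submitters' processing notes, CASAVA, HISAT2 and DESeq2 were used with genome build GRCm39. The sources used here do not state versions, read counter, annotation or strandedness. Further named genes, such as Axin2 and Tbx3, also overlap annotated genes on the other strand. Counts were deposited as unscaled reads of each gene. FPKM, as deposited, scale those to gene length and depth, and the signal columns, as deposited, hold counts over one size factor for each library. The deposited gene length (other) is in bases. Tests used only counts, and the rest served to check units.

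The 3 deposited tables (25892, 25229 and 25027 genes) were joined to 27802 genes. Counts repeated between tables had 0 differences, and 40326 missing values were set to 0. Counts were filtered with filterByExpr and tested two-sided with edgeR 4.0.16 (R 4.3.3; quasi-likelihood F test, robust, trended dispersion, TMM) in the 7 control females, with p adjusted by Benjamini-Hochberg over all genes and a threshold of 0.05. Ablated females and the difference of effects came from a fit of 13 female libraries. The SE was taken as |log2 fold change| / √F, and intervals are 95%. CPM use TMM-scaled library sizes. The alternatives used DESeq2 1.42.0, limma 3.58.1, other filters, scalings and sets of libraries. The scripts were checked on simulated data. Counts per library varied beyond counting error: chi-square per degree of freedom was 252 at 22 °C and 105 at 30 °C.

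The comparison, the gene lists (51 lists, 893 symbols) and the rules were chosen with earlier results of these data known. The rule named called genes, filled to 5 protein-coding genes of lowest p per direction. It added the 5 protein-coding genes of lowest p for the difference with a mean log2 CPM of at least 0. It also named Fgf21, Cyp7a1, Cyp7b1, Igf1, Pck1, Fasn, Scd1, Cpt1a, Cirbp, Rbm3, Agtr1a, Agt, Mt1, Dio1 and Saa1. Part of what it selects is not reported here. Other genes were chosen after their values were seen. Replicate numbers did not pair the samples. The p-values measure the spread between these mice.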

Additional observations from a re-analysis of the deposited data

Results flagged for a closer look

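Among 33 sets of values tested for a lone extreme mouse in the 30 °C group, 1 stood out: Lcorl at 30 °C, where female 1 had 8.30 CPM and the other 3 lay close together up to 10.8 CPM. The gap to the nearest mouse was 0.953 of the range, above Dixon's 95% critical value for 4 samples. Chance gives such a gap in about 1 of 20 groups.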

How the results depend on the processing

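In control females 0 genes were called with limma voom, DESeq2 size factors, all 8 groups, mitochondrial genes left out, either line or Cre restriction, or without any 1 mouse. The Ai39 restriction is the same fit as that without 30 °C female 3. The Cre-negative restriction is the same fit as that without 30 °C female 4. Without the low-count filter 5 were called (3 higher, 2 lower), and with DESeq2 6 (4 higher, 2 lower), from a cause not tested. Calls in ablated females were 581 without the filter, 142 with DESeq2, 16 and 10 with all 8 groups (23 and 24 libraries), and 0 to 7 without 1 mouse (7 without 30 °C ablated female 2, 6 without 22 °C control female 3, 5 without 30 °C control female 1). Without 22 °C control female 3 and 30 °C control female 1 they were 121, although both are controls. The cause was not tested. For the difference, 128 were called without the filter and 6 with DESeq2. Replicate numbers did not pair the mice (correlations -0.127, 0.00976 and -0.180). With the replicate number as a block, 0 genes were called in each comparison, and 262 had an unadjusted p under 0.05 in control females.

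Log2 fold changes near 0 changed sign. Fgf21 was 0.22 with voom and 0.058 without the pair that stood apart, Cyp7b1 -0.10 with the block and -0.081 in Cre-negative mice, and Scd1 0.11 in Ai39 mice and 0.15 without the pair. In Cre-negative Ai39 mice Igf1 was -0.040, Scd1 0.043 and Cpt1a -0.014, and in Ai39 mice Agt was -0.00265. Without 1 mouse, the range was -0.86 to 0.35 for Fgf21, -0.36 to 0.47 for Cyp7b1, -0.40 to 0.11 for Scd1, -0.13 to 0.28 for Rbm3, -0.061 to 0.15 for Agt, -0.49 to 0.13 for Dio1 and -0.46 to 0.50 for Saa1. With 3 against 4 mice, an exact permutation test of 1 gene cannot go below p = 0.0571.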
